A study of Homo sapiens with 12 samples.

Results

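The 10 genes described here encode enzymes that conjugate, reduce or oxidise androgens and other steroids, out of 60835 gene symbols in the deposited tables of read counts and FPKM (counts scaled by gene length and library size). They were taken by symbol. The UDP-glucuronosyltransferases of the 2B family were UGT2B7, UGT2B10, UGT2B11, UGT2B15, UGT2B17 and UGT2B28. The reductases were SRD5A1 and SRD5A3, and the hydroxysteroid dehydrogenases were HSD11B2 and HSD17B4. All of them were listed with values in each of the 12 libraries.

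Poly(A)-selected RNA was sequenced from LNCaP cells, a human prostate cancer line, in 4 groups of 3 biological replicates. One group expressed an shRNA against FOXA1, a forkhead pioneer factor that opens chromatin for other transcription factors, and was set against cells with a negative control shRNA. Another expressed an shRNA against TRIM28, a corepressor recruited by zinc finger proteins, and was set against a separate group of cells with a negative control shRNA. The study asked which genes depend on FOXA1 or on TRIM28 in these cells. All 12 libraries carried the same batch label and the same cell line, and no group had both factors knocked down. The sources used here do not state the hairpin sequences, the length of knockdown or the hormone content of the medium.

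UGT2B enzymes sit in the membrane of the endoplasmic reticulum and transfer glucuronic acid from UDP-glucuronate to hydroxyl groups of steroids, which makes the products water soluble and lets them be exported. In prostate cells UGT2B15 and UGT2B17 are known for the glucuronidation of dihydrotestosterone and its metabolites, the step that ends the action of the hormone inside the cell. SRD5A1 makes dihydrotestosterone or its precursors by reduction, HSD11B2 oxidises cortisol to cortisone, and HSD17B4 is a peroxisomal enzyme of fatty acid beta-oxidation that can also oxidise estradiol. SRD5A3 belongs to the same reductase family by sequence and is best known for making dolichol, the lipid carrier of N-glycosylation.

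The UGT2B genes lie side by side on chromosome 4 of GRCh38 (hg38). In the files' coordinates, UGT2B17 spans bases 68537173 to 68576413 on the minus strand, UGT2B15 68646597 to 68670652 on the minus strand, UGT2B10 68815994 to 68832023 on the plus strand, UGT2B7 69051363 to 69112987 on the plus strand, UGT2B11 69199951 to 69214748 on the minus strand and UGT2B28 69280475 to 69295050 on the plus strand. The 250 bases before the start of UGT2B10, UGT2B11 and UGT2B15 are shown because these genes fell together after knockdown of a forkhead factor. They come from RefSeq on GRCh38.p14, and each start coincides with the one in the files. The 4 forkhead core motifs searched on either strand were TGTTTAC with its variant TGTTTGC and TATTTAC with its variant TATTTGC, and capitals mark the letters that match any of them.
UGT2B10, chr4:68815744-68815993, plus strand: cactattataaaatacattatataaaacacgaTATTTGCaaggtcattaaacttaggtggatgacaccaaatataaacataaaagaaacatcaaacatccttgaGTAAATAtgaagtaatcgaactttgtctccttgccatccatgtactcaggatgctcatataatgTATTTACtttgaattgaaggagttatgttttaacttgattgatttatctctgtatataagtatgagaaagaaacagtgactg
UGT2B11, chr4:69214749-69214998, minus strand: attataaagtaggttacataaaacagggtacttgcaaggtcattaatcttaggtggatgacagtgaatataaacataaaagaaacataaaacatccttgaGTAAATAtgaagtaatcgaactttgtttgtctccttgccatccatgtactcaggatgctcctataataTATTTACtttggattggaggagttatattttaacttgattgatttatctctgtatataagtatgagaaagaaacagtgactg
UGT2B15, chr4:68670653-68670902, minus strand: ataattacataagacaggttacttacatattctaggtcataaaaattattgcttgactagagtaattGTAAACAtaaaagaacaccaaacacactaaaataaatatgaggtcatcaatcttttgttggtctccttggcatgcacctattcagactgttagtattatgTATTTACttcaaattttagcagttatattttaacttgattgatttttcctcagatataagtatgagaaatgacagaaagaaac

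In all 3 genes a TATTTAC began close to the same place, at base -82 in UGT2B10 and UGT2B11 and at base -83 in UGT2B15, counted back from the gene start. UGT2B10 held 2 more matches, TATTTAC on the reverse strand at -146 and TATTTGC at -218. UGT2B11 held 1 more, TATTTAC on the reverse strand at -150, and UGT2B15 held TGTTTAC on the reverse strand at -183. At least 1 of the 4 motifs occurred in 12.1% of 35116 RefSeq promoters searched over the same 300 bases, from 250 before to 50 after the start, and TATTTAC alone in 2.67%. The UGT2B10 and UGT2B11 promoters were 90.1% identical, and UGT2B15 was 69.4% identical to UGT2B10 and 70.6% to UGT2B11. By the same alignment UGT2B15 was 40.2% identical to SRD5A1, 37.8% to SRD5A3 and 46.6% to HSD17B4. The matches in the 3 related UGT2B promoters are therefore not separate observations to set against the shares of all promoters. Of the 7 members with a promoter in the table, UGT2B7, SRD5A1, SRD5A3 and HSD17B4 held none of the forkhead motifs in this window; their RefSeq starts lie between 13 and 45111 bases from the gene starts in the files. A match of letters is a description and was not tested as a binding site.

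The libraries held between 12256092 and 15152890 counted reads. The shRNAs lowered their targets: FOXA1 stood at 29.5%, 28.7% and 29.2% of its control mean in the 3 FOXA1 knockdown libraries, and TRIM28 at 31.9%, 28.3% and 14.0% in the TRIM28 knockdown libraries. FOXA1 was also lower in TRIM28 knockdown cells, with 47.2%, 42.6% and 70.1% of the control mean in replicates 1, 2 and 3 (adjusted p = 0.0055 by edgeR, log2 fold change -0.90 with SE 0.17), and the log2 fold change was -1.15 without replicate 3 (adjusted p = 1.86e-16). Replicate 3 of the TRIM28 knockdown stood apart. Its counts differed from replicates 1 and 2 of its group by a chi-square per degree of freedom of 25.8 and 23.3, where all other replicate pairs lay between 3.12 and 6.31. That library had the lowest TRIM28, the highest FOXA1 of its group and a summed level of 5 stromal marker genes (COL1A1, COL1A2, DCN, LUM, PDGFRB) of 252 CPM (counts scaled to library size), against 28.6 and 33.7 in replicates 1 and 2 and 27.9 to 32.1 in the TRIM28 controls. The edgeR results of the TRIM28 comparison are therefore given with and without it, and what sets it apart was not tested. The 8 luminal prostate markers were all detected in every group, and their summed level was 2378 to 2431 CPM in FOXA1 knockdown against 3895 to 3983 in its control, and 2293 to 2518 in TRIM28 knockdown against 3850 to 3945 in its control.

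After FOXA1 knockdown, 5 UGT2B genes fell, to at most 40.2% of the control mean in every library, and HSD11B2 rose, while SRD5A1 and HSD17B4 fell by far less and SRD5A3 was not called. Of the 9 members with enough counts to test, 7 were lower, 1 was higher and 1 was not called (edgeR quasi-likelihood test, Benjamini-Hochberg adjusted p under 0.05 over 14953 genes). The background was high: 52.4% of all tested genes were called, 26.3% lower and 26.1% higher, so being called says little here and the size of the change carries more. A called decrease of at least 2-fold (log2 fold change of -1 or lower) was found in 3.62% of tested genes and in 5 of the 9 tested members. The median log2 fold change was -1.61 over the tested members and -0.02 over all tested genes. The members were chosen with earlier results of these data known. Comparisons of the members with all genes, here and below, are therefore descriptions and not a test of the set. In RNA of whole cultures, fewer cells with a transcript and less transcript per cell cannot be told apart.

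**Figure D1:**
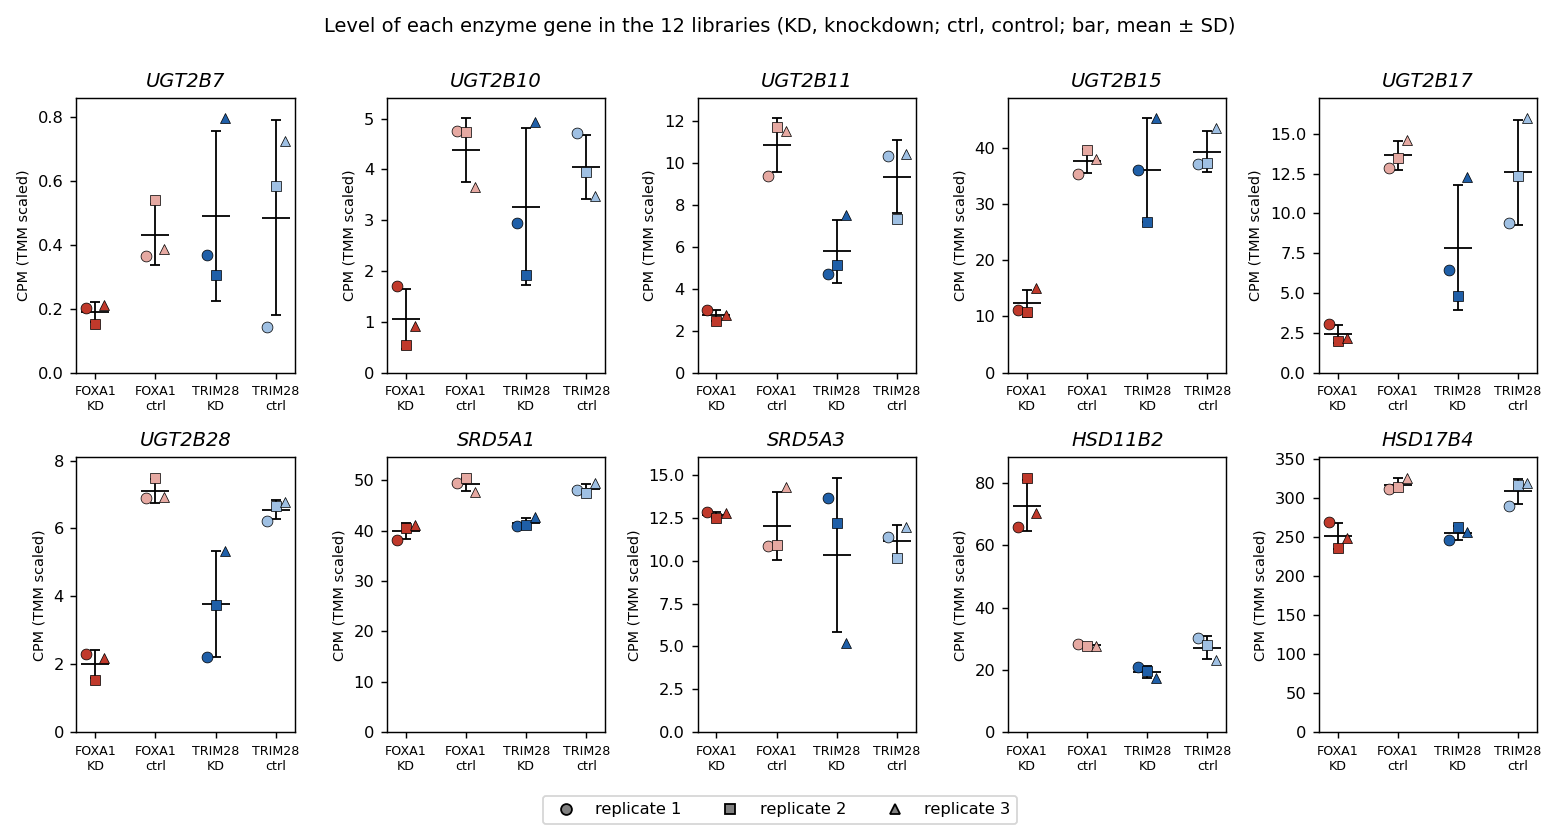
Level of each of the 10 genes in the 12 libraries, as CPM scaled by TMM, with a linear axis from 0 in each panel; points are libraries, shaped by replicate, and the bar with whiskers is the mean ± SD of 3. UGT2B15 lay at 10.8 to 15.1 CPM in FOXA1 knockdown against 35.3 to 39.5 in its control, and HSD11B2 at 65.8 to 81.7 against 27.6 to 28.2.

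UGT2B15, which had the highest FPKM of the UGT2B genes in every library, measured 11.1, 10.8 and 15.1 CPM in FOXA1 knockdown, against 35.3, 39.5 and 37.9 CPM in its control. The groups were far apart, and the highest knockdown library was below the lowest control. The log2 fold change was -1.61 ± 0.11 (SE; adjusted p = 9.84e-13), a level of 0.33 of control. UGT2B17, its closest relative, showed the largest decrease of the members. It had 3.05, 1.98 and 2.20 CPM in FOXA1 knockdown, against 12.8, 13.5 and 14.6 CPM in control. Every knockdown library was at 22.4% of the control mean or less, and the log2 fold change was -2.49 ± 0.18 (adjusted p = 1.03e-12).

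UGT2B28 is known to conjugate steroids, and UGT2B11 is a close relative of UGT2B10. UGT2B11 measured 2.98, 2.44 and 2.76 CPM in FOXA1 knockdown, against 9.38, 11.7 and 11.5 CPM in control, a log2 fold change of -1.99 ± 0.18 (adjusted p = 1.61e-10). UGT2B28 measured 2.31, 1.52 and 2.20 CPM in knockdown, against 6.89, 7.50 and 6.91 CPM in control, a log2 fold change of -1.82 ± 0.21 (adjusted p = 2.81e-08). Neither gene overlapped between groups. UGT2B10, known for N-glucuronidation of amines such as nicotine metabolites, was the least even: it had 1.70, 0.533 and 0.921 CPM in knockdown, from 25, 7 and 13 reads, against 4.76, 4.73 and 3.65 CPM in control, from 65, 70 and 47 reads. The groups were apart and the log2 fold change was -2.04 ± 0.30 (adjusted p = 1.97e-06). UGT2B7, a major liver enzyme for glucuronidation of steroids and opioids, had only 3, 2 and 3 reads in knockdown and 5, 8 and 5 reads in control. It did not pass the filter on low counts and was not tested.

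Markers of other cell types moved beside these genes at low levels. The 9 hepatocyte markers, included because liver is the main UGT2B tissue, summed to 10.4 to 11.6 CPM in FOXA1 knockdown, against 14.4 to 15.9 CPM in its control. APOA2 was without a read in knockdown and in control, and FGB had none in knockdown and 1 read in control, in replicate 1. Of the 3 with enough reads to test, ALB (albumin) fell to 1.03 ± 0.28 CPM in knockdown, against 6.63 ± 0.22 in control (log2 -2.69, adjusted p = 2.98e-10), SERPINA1 rose to 3.80 ± 0.26, against 1.64 ± 0.38 (log2 1.21, adjusted p = 0.000269), and 1 was not called. The 5 enterocyte markers summed to 1.29 to 2.20 CPM in knockdown, against 2.95 to 4.62 in control, and the only one tested, SI (sucrase-isomaltase), fell (log2 -2.71, adjusted p = 1.87e-06). The 3 basal epithelial markers summed to 2.97 to 3.54 CPM in knockdown, against 0.311 to 1.01 in control, with KRT14 higher (log2 3.05, adjusted p = 1.25e-07). KRT14 made up most of the sum in knockdown, at 2.88 CPM, against 0.335 in control. KRT5 (0.30 CPM in knockdown, 0.16 in control) and TP63 (0.025 and 0.11) overlapped between the groups and were not tested. Sums of the 5 stromal markers (29.9 to 36.6 CPM in knockdown, 29.9 to 33.0 in control) and of the 4 leukocyte markers (0.814 to 1.60 in knockdown, 1.01 to 1.55 in control) overlapped. COL1A1 made up most of the stromal sum, at 28.4 CPM in knockdown and 25.6 in control. By edgeR, PDGFRB was just called lower (0.841 CPM in knockdown, 1.57 in control, log2 -0.91, adjusted p = 0.04999), and the other 4 stromal markers were not called. After TRIM28 knockdown ALB was also lower, at 2.56 ± 0.56 CPM in knockdown and 5.95 ± 1.3 in control (log2 -1.21, adjusted p = 0.00859), while the hepatocyte sum was 14.9 to 15.8 in knockdown and 12.8 to 15.8 in control. The part of these markers in the UGT2B values was not tested.

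The reductases moved less. SRD5A1 measured 38.2, 40.5 and 41.1 CPM in FOXA1 knockdown, against 49.4, 50.4 and 47.7 CPM in control. The groups did not overlap, and the log2 fold change was -0.31 ± 0.07 (adjusted p = 0.000732), a level of 0.81 of control. SRD5A3 measured 12.8, 12.5 and 12.8 CPM in knockdown, against 10.8, 10.9 and 14.3 CPM in control. All 3 knockdown libraries lay within the range of the controls, and the log2 fold change of 0.08 had a 95% interval from -0.19 to 0.34 (adjusted p = 0.645).

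HSD11B2 was the one member that rose. It measured 65.8, 81.7 and 70.5 CPM in FOXA1 knockdown, against 28.2, 27.6 and 27.8 CPM in control. The lowest knockdown library was above the highest control, and the log2 fold change was 1.38 ± 0.08 (adjusted p = 1.46e-14), a 2.60-fold increase. A called increase of at least 2-fold was found in 5.7% of tested genes. HSD17B4, the most highly expressed member per length in the controls, measured 269, 236 and 249 CPM in knockdown, against 311, 314 and 326 CPM in control. The groups did not overlap, and its log2 fold change was -0.34 ± 0.05 (adjusted p = 1.09e-06). In the FOXA1 comparison 8 of the 9 tested members, and UGT2B7 by its few reads, had no overlap between knockdown and control libraries, beside 58.3% of all tested genes.

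**Figure D2:**
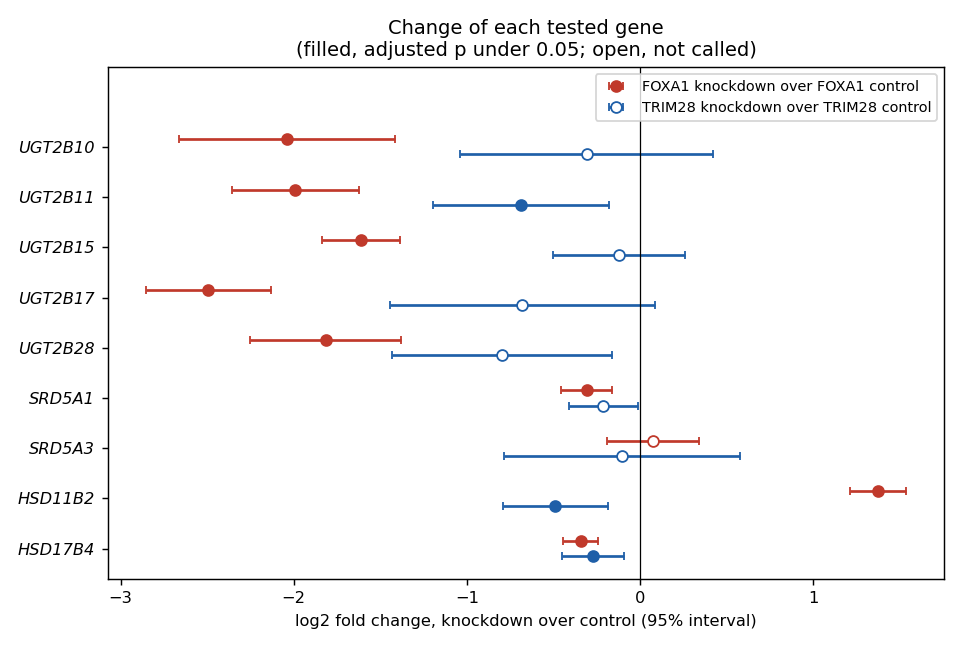
log2 fold change of the 9 tested genes, knockdown over its own control, with 95% intervals from the edgeR fit; red is FOXA1 knockdown and blue is TRIM28 knockdown, and open symbols were not called. The FOXA1 intervals of the 5 UGT2B genes lie between -2.86 and -1.38, while the TRIM28 intervals of UGT2B10, UGT2B15 and UGT2B17 include 0.

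After TRIM28 knockdown, UGT2B11, HSD11B2 and HSD17B4 fell, and the other 6 tested members were not called. The background was 26.7% of 14981 tested genes called, 13.3% lower and 13.3% higher, so 3 called of 9 is close to the share of all genes. The median log2 fold change was -0.31 over the tested members and 0.0022 over all tested genes. Of the called genes 49.9% were higher with TMM scaling, 63.4% with library size only and 59.5% or 59.1% on FPKM, which is scaled by library size. None of the 9 members was called with library size only, where 27.4% of all tested genes were called, or on FPKM, where 24.5% or 24.2% were. Without replicate 3 of the knockdown, 8 of the 9 were called, all lower, beside 45% of 15475 tested genes called and 23.5% called lower. With all 6 libraries, a called decrease of at least 2-fold was found in 1.27% of tested genes and a called increase of that size in 3.26%, and in none of the 9 members.

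UGT2B11 measured 4.72, 5.13 and 7.49 CPM in TRIM28 knockdown, against 10.3, 7.32 and 10.4 CPM in its control. Replicate 3 of the knockdown lay just above the lowest control, so the groups overlapped. The log2 fold change was -0.69 ± 0.23 (adjusted p = 0.0485), and -0.92 without replicate 3 (adjusted p = 0.000337). HSD11B2 measured 21.0, 19.5 and 17.3 CPM in knockdown, against 30.4, 28.1 and 23.0 CPM in control, with no overlap. The log2 fold change was -0.49 ± 0.14 (adjusted p = 0.0247), and -0.42 without replicate 3 (adjusted p = 0.00462), the opposite direction to its change after FOXA1 knockdown. HSD17B4 measured 246, 263 and 256 CPM in knockdown, against 290, 316 and 320 CPM in control, also with no overlap, a log2 fold change of -0.27 ± 0.08 (adjusted p = 0.0330) and of -0.28 without replicate 3 (adjusted p = 0.000764). Each of these calls was lost when single libraries other than replicate 3 were left out: the adjusted p reached 0.166 for UGT2B11, 0.109 for HSD11B2 and 0.127 for HSD17B4.

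The remaining UGT2B genes split by library. UGT2B15 measured 36.0, 26.7 and 45.3 CPM in TRIM28 knockdown, against 37.2, 37.2 and 43.5 CPM in control, so replicates 1 and 2 were below every control and replicate 3 above every control. Its log2 fold change was -0.12 ± 0.17 (adjusted p = 0.633), -0.32 without replicate 3 (adjusted p = 0.0205) and 0.052 without replicate 2 of the knockdown (adjusted p = 0.833). UGT2B17 measured 6.41, 4.83 and 12.3 CPM in knockdown, against 9.38, 12.4 and 16.0 CPM in control. Replicates 1 and 2 were again below every control and replicate 3 was among them. Its log2 fold change was -0.68 ± 0.34 (adjusted p = 0.169), and -1.15 without replicate 3 (adjusted p = 3.60e-05).

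UGT2B28 measured 2.21, 3.75 and 5.34 CPM in TRIM28 knockdown, against 6.23, 6.66 and 6.78 CPM in control. All knockdown libraries were below all controls, but the spread among them was wide, and the log2 fold change of -0.80 ± 0.29 was not called (adjusted p = 0.0635); without replicate 3 it was -1.13 (adjusted p = 0.000257). UGT2B10 measured 2.95, 1.92 and 4.94 CPM in knockdown, against 4.73, 3.95 and 3.47 CPM in control. Replicates 1 and 2 were below the controls and replicate 3 above them, with a log2 fold change of -0.31 ± 0.33 (adjusted p = 0.520) and of -0.73 without replicate 3 (adjusted p = 0.0395). UGT2B7 had 5, 4 and 10 reads in knockdown and 2, 8 and 9 reads in control and was not tested.

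**Figure D3:**
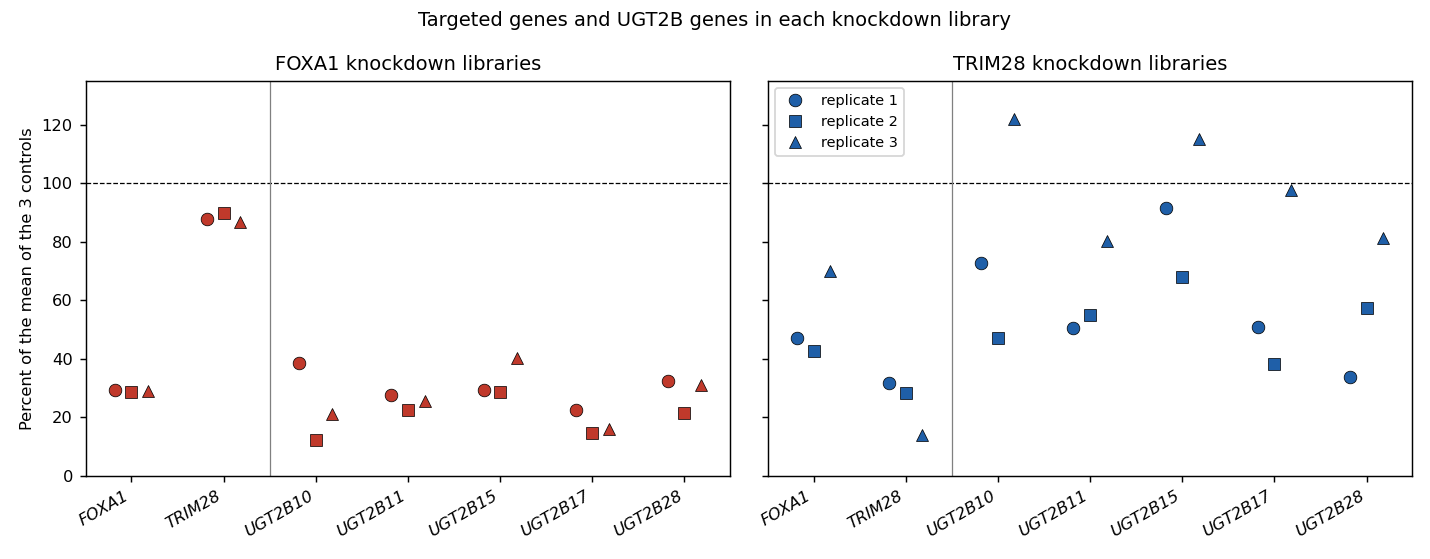
Level of the targeted genes FOXA1 and TRIM28 and of the 5 tested UGT2B genes in each knockdown library, as a percent of the mean of the 3 matching controls (dashed line at 100), with replicates marked by shape. In the FOXA1 knockdown panel all UGT2B values lie between 12.2% and 40.2%; in the TRIM28 knockdown panel replicates 1 and 2 lie between 33.7% and 91.6% and replicate 3 between 80.2% and 122%.

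The order of the TRIM28 knockdown libraries in FOXA1 can be set beside the UGT2B values. FOXA1 stood at 47.2%, 42.6% and 70.1% of control in replicates 1, 2 and 3. The 5 UGT2B genes stood at 33.7% to 91.6% in replicate 1, at 38.4% to 68.1% in replicate 2 and at 80.2% to 122% in replicate 3. Replicate 3 had the highest level of FOXA1 and of each of these UGT2B genes, and the lowest TRIM28, at 14.0%. Between replicates 1 and 2 the order was not shared by all. FOXA1, UGT2B10, UGT2B15 and UGT2B17 were lower in replicate 2. UGT2B11 (50% in replicate 1, 55% in replicate 2) and UGT2B28 (34% and 57%) were lower in replicate 1. With 3 libraries, and with replicate 3 apart in many other genes, whether FOXA1 level has a part in this was not tested.

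SRD5A1 measured 40.8, 41.1 and 42.7 CPM in TRIM28 knockdown, against 48.0, 47.4 and 49.4 CPM in control. The groups did not overlap, but the log2 fold change of -0.21 ± 0.09 was not called (adjusted p = 0.109); without replicate 3 it was -0.23 (adjusted p = 0.0302). SRD5A3 measured 13.6, 12.2 and 5.18 CPM in knockdown, against 11.4, 10.2 and 12.0 CPM in control. Replicates 1 and 2 were above every control and replicate 3 was at 46.4% of the control mean. The log2 fold change was -0.10 ± 0.30 (adjusted p = 0.830), and 0.21 without replicate 3 (adjusted p = 0.278). In the TRIM28 comparison 4 of the 9 tested members had no overlap between groups, close to the 44.2% of all tested genes.

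The effects of the knockdowns were compared directly in a fit over all 12 libraries, where 10.6% of 15921 tested genes differed, 4.59% with a lower and 5.98% with a higher FOXA1 effect. Among the 9 tested members, 5 differed. UGT2B15 fell further after FOXA1 than after TRIM28 knockdown, with a difference of log2 fold changes of -1.48 ± 0.23 (SE; adjusted p = 0.000808). The differences were -1.29 ± 0.29 for UGT2B11 (adjusted p = 0.00835), -1.81 ± 0.43 for UGT2B17 (adjusted p = 0.0143) and -1.72 ± 0.50 for UGT2B10 (adjusted p = 0.0360). HSD11B2 differed in the other direction, by 1.88 ± 0.16 (adjusted p = 1.17e-06), since it rose after FOXA1 knockdown and fell after TRIM28 knockdown. UGT2B28 was not called, with a difference of -1.01 and a 95% interval from -1.77 to -0.25 (adjusted p = 0.0867).

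For the remaining members the difference of effects was small beside its error: -0.08 for SRD5A1 (95% interval -0.30 to 0.13), -0.06 for HSD17B4 (-0.26 to 0.13) and 0.19 for SRD5A3 (-0.56 to 0.93). The call for UGT2B10 was lost in both fits on FPKM and in several fits that left out 1 library, where its adjusted p reached 0.102. Without replicate 3 of the TRIM28 knockdown the differences were -1.28 for UGT2B15, -1.06 for UGT2B11, -1.33 for UGT2B17, -1.30 for UGT2B10 and 1.81 for HSD11B2, each still called, and 3528 genes were called in place of 1683. The call for UGT2B17 was lost without replicate 2 of the FOXA1 knockdown (adjusted p = 0.0507). Across all genes, 56.6% of the called differences were higher with TMM scaling and 40.0% with library size only, and 5 members were called with each scaling.

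The controls gave the members similar levels. No gene of 14839 tested was called between the TRIM28 controls and the FOXA1 controls by edgeR or by DESeq2, 635 genes had an unadjusted p under 0.05 by edgeR, and 9.29% of tested genes had no overlap. The log2 difference of UGT2B15 was 0.07 (95% interval -0.11 to 0.24), with 37.2, 37.2 and 43.5 CPM in the TRIM28 controls and 35.3, 39.5 and 37.9 CPM in the FOXA1 controls. That of UGT2B17 was -0.12 (-0.43 to 0.20) and that of HSD11B2 was -0.03 (-0.23 to 0.18). UGT2B28 was the only member without overlap, at 6.23, 6.66 and 6.78 CPM in the TRIM28 controls against 6.89, 7.50 and 6.91 CPM in the FOXA1 controls, and it was not called (adjusted p = 0.992).

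Per length, the order of the members in the FOXA1 controls was led by HSD17B4 at 26.0 ± 0.48 FPKM, UGT2B15 at 17.2 ± 1.0 and HSD11B2 at 14.4 ± 0.18 (SD, n = 3). SRD5A1 followed at 6.82 ± 0.25, UGT2B17 at 5.37 ± 0.32, UGT2B11 at 5.03 ± 0.60, UGT2B28 at 3.73 ± 0.21, SRD5A3 at 2.89 ± 0.45, UGT2B10 at 1.55 ± 0.24 and UGT2B7 at 0.223 ± 0.051 FPKM. UGT2B17 and UGT2B11 did not differ beyond their spread. In FOXA1 knockdown HSD11B2 stood first at 37.7 ± 4.5 FPKM, followed by HSD17B4 at 20.7 ± 1.2, and UGT2B15 at 5.68 ± 1.1 was level with SRD5A1 at 5.57 ± 0.26 FPKM. In TRIM28 knockdown the order at the top was HSD17B4 at 22.4 ± 0.79 FPKM, UGT2B15 at 17.6 ± 4.3 and HSD11B2 at 10.6 ± 1.2, the same order as in its control.

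The summed level of the 6 UGT2B genes does not depend on how reads of similar copies were split among them. The sum was 21.3, 17.5 and 23.4 CPM in FOXA1 knockdown, against 69.5, 77.5 and 75.0 CPM in its control, a log2 ratio of means of -1.84. In TRIM28 knockdown it was 52.6, 42.7 and 76.1 CPM, against 67.9, 68.1 and 80.8 CPM in its control, a log2 ratio of -0.34. Replicates 1 and 2 of the TRIM28 knockdown were below the controls and replicate 3 within their range. The TRIM28 log2 ratio was -0.60 without knockdown replicate 3 and -0.17 without knockdown replicate 2. The sums rest on 229 to 330 reads per library in FOXA1 knockdown and on 949 to 1147 in its control, and on 557 to 955 in TRIM28 knockdown and 931 to 1001 in its control.

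**Figure D4:**
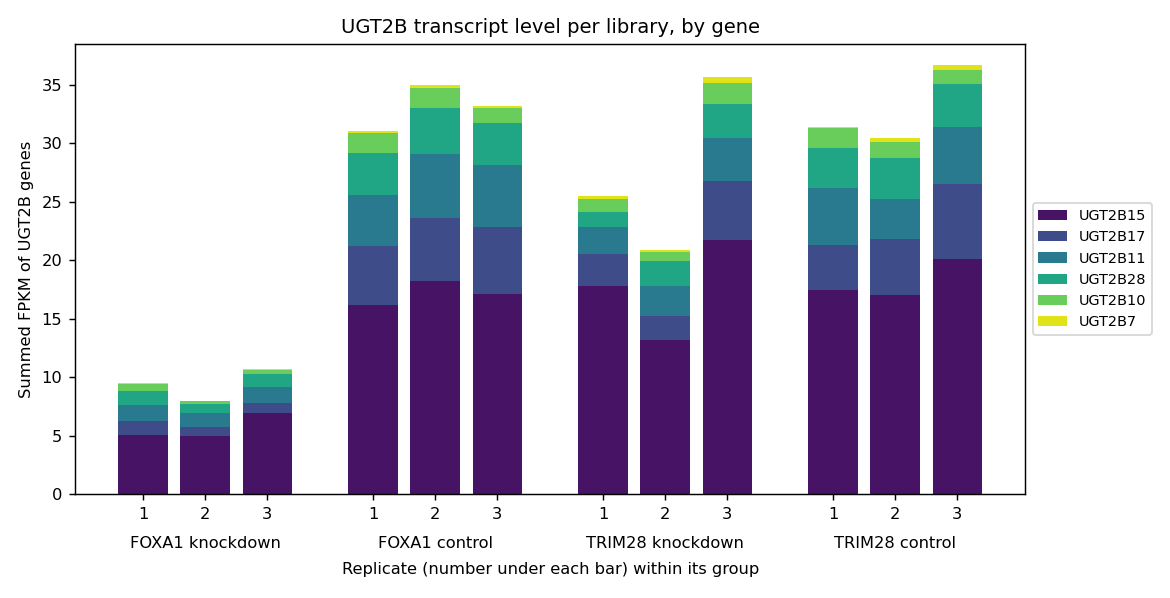
Summed FPKM of the 6 UGT2B genes in each of the 12 libraries, stacked by gene, with replicate numbers under the bars and an axis from 0. The sum was 8.02 to 10.8 FPKM in FOXA1 knockdown against 31.1 to 35.0 in its control, and 20.9 to 35.6 in TRIM28 knockdown against 30.4 to 36.7 in its control; UGT2B15 was the largest band in each library.

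UGT2B15 made up 60.1% ± 6.3 of the summed FPKM in FOXA1 knockdown and 51.9% ± 0.21 in its control, and 64.7% ± 4.6 in TRIM28 knockdown and 55.5% ± 0.50 in its control (SD, n = 3 each). UGT2B17 made up 10.2% ± 2.2 in FOXA1 knockdown and 16.2% ± 0.91 in its control, and 11.6% ± 2.3 in TRIM28 knockdown and 15.2% ± 2.7 in its control. The ratio of UGT2B17 to UGT2B15 reads was 0.276, 0.183 and 0.146 in FOXA1 knockdown, against 0.363, 0.342 and 0.385 in control, with no overlap. An exact permutation test, two-sided, gave p = 0.1 for FOXA1, the smallest that 3 against 3 libraries allow, and p = 0.2 for TRIM28, where the ratio was 0.178, 0.180 and 0.271 in knockdown, against 0.252, 0.332 and 0.368 in control. Knockdown replicate 3 alone lay within the range of the TRIM28 controls. This ratio was chosen after the values were seen. How reads shared by both genes were counted bears on it: 27.8% of 50-base windows and 4.88% of 150-base windows of the UGT2B15 transcript in GENCODE 29 occur without mismatch in another gene, most often UGT2B17, and the sources used here do not state the read length.

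Similar copies touch the other UGT2B values too. Windows of 100 bases found in another gene made up 9.3% of the UGT2B11 transcript, 6.6% of UGT2B10 and 5.71% of UGT2B28, and none of UGT2B7, SRD5A1, SRD5A3, HSD11B2 or HSD17B4. The sources used here do not say whether counting used strand, so reads of UGT2B11, SRD5A3 and HSD11B2 cannot be told apart from those of the antisense genes AC111000.4, SRD5A3-AS1 and AC009061.1 where they overlap.

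Around the UGT2B genes, within 500000 bases of their outer ends, 66 genes were listed and 9 had enough reads to test in the FOXA1 comparison. UGT2B4, a liver UGT2B gene outside the members, measured 0.702 ± 0.29 CPM in FOXA1 knockdown and 3.75 ± 0.89 CPM in control (SD, n = 3 each), a log2 fold change of -2.43 ± 0.34 (adjusted p = 5.32e-07); after TRIM28 knockdown it was -0.97 ± 0.45 (adjusted p = 0.136), and -1.57 ± 0.39 without replicate 3 (adjusted p = 0.000993). At the flank, YTHDC1, a reader of methylated RNA, had a log2 fold change of 0.08 after FOXA1 knockdown (adjusted p = 0.217), and the noncoding gene UBA6-DT fell by 0.61 (adjusted p = 0.00209). MT2P1 was at -0.83 and was not called (adjusted p = 0.398). In all, 7 of the 9 tested genes in the window were lower and 2 were not called, beside 26.3% of all tested genes lower. The lower ones were UGT2B4, UBA6-DT and the UGT2B members already given as lower above. The window was drawn around these members, so the count is not separate from their results. Of the 66 listed genes, 37 had no read in any library.

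**Figure D5:**
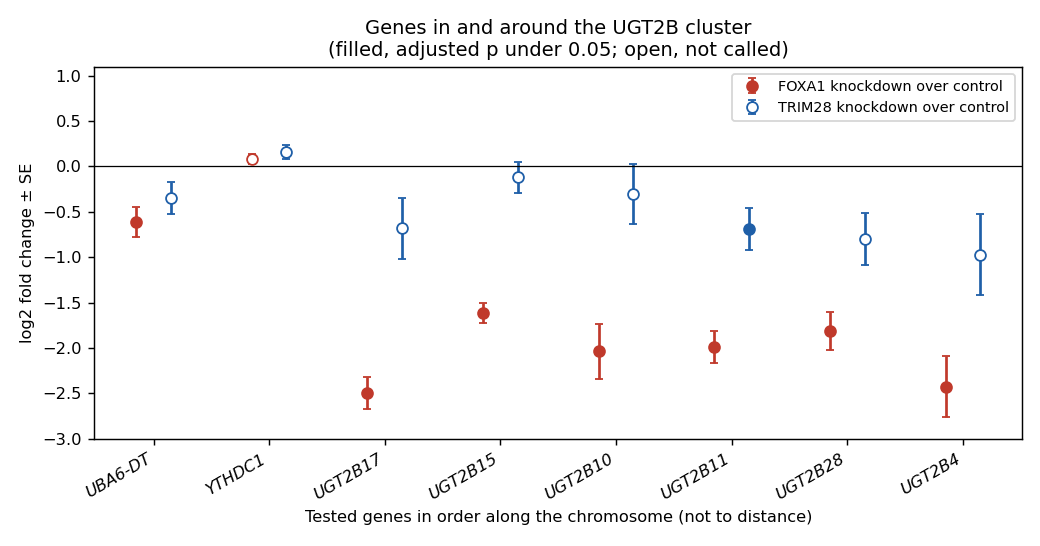
log2 fold change ± SE, knockdown over its own control, of the genes tested in both comparisons in and around the UGT2B cluster, in chromosomal order but not to distance; red is FOXA1 knockdown, blue is TRIM28 knockdown and open symbols were not called. Every UGT2B gene shown, UGT2B4 included, lies at -1.61 or lower after FOXA1 knockdown, and YTHDC1 lies at 0.08.

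Of 16 other glucuronosyltransferase genes, 5 were tested in the FOXA1 comparison: 2 were higher, 1 (UGT2B4) was lower and 2 were not called, with a median log2 fold change of -0.10. That is 60% called, beside 52.4% of all tested genes. UGT1A1, the enzyme that conjugates bilirubin, measured 3.24 ± 0.14 CPM in FOXA1 knockdown and 0.920 ± 0.56 CPM in control, a log2 fold change of 1.83 ± 0.36 (adjusted p = 8.74e-05). UGT1A3 rose as well, by a log2 fold change of 3.03 ± 0.61 (adjusted p = 0.000113), but averaged only 0.148 CPM in control, and UGT1A genes share exons, so their reads cannot be told apart with certainty. UGT8, which makes galactosylceramide, was not called (-0.21, adjusted p = 0.118). In the TRIM28 comparison 1 of 4 tested was higher, UGT8 with 25.9 ± 3.6 CPM in knockdown and 17.4 ± 2.5 CPM in control (log2 fold change 0.58 ± 0.15, adjusted p = 0.0161), and 3 were not called. Among all tested genes 26.7% were called. Without replicate 3 UGT8 was at 0.46 (adjusted p = 0.00321), and UGT2B4 and UGT3A1 (log2 -1.10, adjusted p = 0.00770) were lower. That is 75% of the 4 called, beside 45% of all tested genes.

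Genes for the supply of UDP-glucuronate and for cleavage and export of glucuronides went both ways in FOXA1 knockdown: of 8 tested, 4 were higher, 3 lower and 1 not called. That is 87.5% called, beside 52.4% of all tested genes. UGP2 and UGDH, which make UDP-glucose and oxidise it to UDP-glucuronate, rose, to 98.8 ± 3.1 CPM in knockdown against 72.5 ± 0.68 in control for UGP2 (log2 0.44, adjusted p = 1.84e-07) and to 188 ± 5.1 against 154 ± 8.9 for UGDH (log2 0.28, adjusted p = 3.73e-05). ABCC4, an exporter of organic anions, fell to 310 ± 4.5 CPM in knockdown, against 493 ± 6.6 in control (log2 -0.68, adjusted p = 1.28e-13), and GUSB, the lysosomal glucuronidase, fell by 0.25 on the log2 scale (adjusted p = 0.00169). In TRIM28 knockdown 1 of 9 was higher, 2 were lower and 6 were not called, so 33.3% were called beside 26.7% of all tested genes. ABCC4 was again lower, at 301 ± 13 CPM in knockdown against 488 ± 36 in control (log2 -0.69, adjusted p = 0.000786), as was GUSB (log2 -0.52, adjusted p = 0.00782). The called increase was in SLC35D1, a transporter of UDP-sugars which averaged 1.62 CPM in knockdown and only 0.237 in control (adjusted p = 0.0144), and SLC35D2 was at -0.96 and not called (adjusted p = 0.0530). Without replicate 3, 1 of the 9 was higher, 5 were lower and 3 were not called, so 66.7% were called beside 45% of all tested genes. ABCC4 was then at -0.66 (adjusted p = 2.78e-10), GUSB at -0.61 (adjusted p = 4.47e-07), SLC35D1 at 2.36 (adjusted p = 0.00406) and SLC35D2 at -0.89 (adjusted p = 0.0406). UGDH (log2 -0.31, adjusted p = 0.000246) and SLC35B1 (log2 -0.19, adjusted p = 0.0476) were the others lower there.

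Among 20 tested genes for other steps of steroid synthesis and conversion, 8 were higher, 7 lower and 5 not called after FOXA1 knockdown, so 75% were called beside 52.4% of all tested genes, in both directions. HSD17B11, a short-chain dehydrogenase of lipid droplets that oxidises androstanediol, rose to 34.4 ± 3.5 CPM in knockdown, against 13.3 ± 0.79 in control (log2 1.37 ± 0.10, adjusted p = 2.72e-12). HSD17B6, which oxidises androstanediol to dihydrotestosterone, fell to 2.68 ± 0.38 CPM in knockdown, against 9.09 ± 1.1 in control (log2 -1.77 ± 0.19, adjusted p = 5.44e-09). HSD17B8 (log2 -0.79, adjusted p = 1.03e-07) and HSD17B10 (log2 -0.42, adjusted p = 1.78e-07), which act in mitochondrial metabolism, were lower. After TRIM28 knockdown 3 of 21 tested were higher, 5 lower and 13 not called, so 38.1% were called beside 26.7% of all tested genes. HSD17B6 was again lower, with 4.25 ± 0.67 CPM in knockdown and 8.38 ± 0.87 in control (log2 -0.97, adjusted p = 0.00649), as were HSD17B8 (log2 -0.55, adjusted p = 0.00671), the electron donor CYB5A (log2 -0.46, adjusted p = 0.00766) and CYP11A1, the side-chain cleavage enzyme (log2 -1.62, adjusted p = 0.00855). Without replicate 3, 3 of the 21 were higher, 6 lower and 12 not called, so 42.9% were called, near the 45% of all tested genes. HSD17B6 was then at -1.11 (adjusted p = 5.04e-05), HSD17B8 at -0.54 (adjusted p = 0.000284), CYB5A at -0.37 (adjusted p = 2.19e-05) and CYP11A1 at -1.37 (adjusted p = 0.00139).

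HSD17B4 works beside other peroxisomal beta-oxidation genes, of which 14 were tested: 5 were higher, 3 lower and 6 not called after FOXA1 knockdown. That is 57.1% called, near the 52.4% of all tested genes. The fatty acid transporter ABCD3 rose to 173 ± 5.2 CPM in knockdown, against 96.1 ± 6.9 in control (log2 0.84, adjusted p = 2.92e-13), and HACL1, of alpha-oxidation, was also higher (log2 0.51, adjusted p = 1.91e-06). ACOX2, the oxidase for branched chains and bile acid precursors, fell to 49.2 ± 4.6 CPM in knockdown, against 70.1 ± 1.6 in control (log2 -0.51, adjusted p = 4.96e-07). After TRIM28 knockdown 2 were higher, 4 lower and 8 not called, so 42.9% were called beside 26.7% of all tested genes. ACOX2 was again lower, with 46.0 ± 1.2 CPM in knockdown and 71.3 ± 0.85 in control (log2 -0.63, adjusted p = 0.00104), and ECH1 (log2 -0.46, adjusted p = 0.00464) and the import receptor PEX5 (log2 -0.70, adjusted p = 0.0105) were lower. Without replicate 3, 2 were higher, 5 lower and 7 not called, so 50% were called, near the 45% of all tested genes. ACOX2 was then at -0.62 (adjusted p = 6.32e-08), ECH1 at -0.45 (adjusted p = 4.33e-06) and PEX5 at -0.94 (adjusted p = 4.74e-13).

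Of 10 dolichol pathway genes beside SRD5A3, 2 were higher, 3 lower and 5 not called after FOXA1 knockdown, and none was called after TRIM28 knockdown by edgeR, where 5 of the 10 had an unadjusted p under 0.05. The 50% called after FOXA1 knockdown was near the 52.4% of all tested genes, and 26.7% of all were called after TRIM28 knockdown. Without replicate 3 of the TRIM28 knockdown DOLK was higher there (log2 0.35, adjusted p = 0.0146), and DPAGT1 (log2 -0.53, adjusted p = 0.00214) and MPDU1 (log2 -0.45, adjusted p = 4.76e-05) were lower. That is 30% of the 10 called, beside 45% of all tested genes. DOLK, the dolichol kinase, rose to 34.9 ± 2.6 CPM in FOXA1 knockdown, against 20.4 ± 1.5 in control (log2 0.77, adjusted p = 4.98e-08). DPM3 and DPM2, subunits of dolichol phosphate mannose synthase, were lower (log2 -0.52, adjusted p = 0.00026, and log2 -0.26, adjusted p = 0.0068), as was DPAGT1, the first enzyme of the N-glycan precursor (log2 -0.45, adjusted p = 0.00128).

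Of 14 genes listed as regulators of UGT2B transcription, 6 were tested in the FOXA1 comparison, and 2 were higher, 1 lower and 3 not called. The lower one was FOXA1 itself. That is 50% called, near the 52.4% of all tested genes. The stress factor NFE2L2 was slightly higher after FOXA1 knockdown (log2 0.18, adjusted p = 0.00918). In the TRIM28 comparison 7 were tested, and 1 was higher, 2 lower and 4 not called. So 42.9% were called, beside 26.7% of all tested genes. FOXA1 was among the lower ones, and the higher one was HNF4A, at a low level. HNF4A, a liver factor, averaged 1.18 CPM in TRIM28 knockdown and 0.295 CPM in control (adjusted p = 0.0161, and 0.0172 without replicate 3). Whether these levels have a part in the UGT2B values was not tested.

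Over the 12 libraries, the 3 genes most like UGT2B15 in log2 CPM were SAT1, which acetylates polyamines (Pearson r = 0.972), RBM22 (0.971) and DDX49 (0.970), out of 15912 genes compared. Those most like SRD5A1 were TMEM42 (0.981), PKP1 (0.979) and the thyroid hormone receptor THRB (0.977), and those most like HSD17B4 were LAP3 (0.978), MBNL1 (0.976) and RPL7P9 (0.975). These are descriptions: the libraries share the 4 groups, and the most like of so many genes have high values by selection. SAT1, for example, had log2 fold changes of -1.06 after FOXA1 knockdown and -0.13 after TRIM28 knockdown, beside -1.61 and -0.12 for UGT2B15.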

How the data were processed

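RNA sequencing of 12 LNCaP libraries was analysed from 2 tables that the authors deposited, one with raw read counts per gene symbol and one with FPKM. The sources used here do not state the aligner, counting tool, strand setting or read length. Per the submitters' processing notes, GRCh38 (hg38) was the build. In 33045 of 33045 genes checked (relative tolerance 0.001), the deposited FPKM could be rebuilt from counts, library totals and a fixed length for each gene, so FPKM has no scaling beyond library size. The source label writes the line as LACAP and the study's design text as LNCaP, which is used here. Knockdown groups were taken from the treatment labels and control groups from the sample titles; some genotype labels carry neighbouring numbers and were not used.

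The members and gene lists were chosen with earlier results of these data known. Levels are CPM scaled by TMM over the 12 libraries. Each comparison was fitted with edgeR 4.0.16 in R 4.3.3 (TMM, filterByExpr defaults, robust quasi-likelihood F-test, two-sided), with Benjamini-Hochberg adjustment over all genes tested and a threshold of 0.05. Only the libraries of the groups compared entered a fit, and all 12 entered the difference of effects. SE and 95% intervals come from that fit. Alternatives were DESeq2 1.42.0, other scalings, no filter, a replicate block, limma 3.58.1 on log2(FPKM + 0.1) and log2(FPKM + 1), 1 fit over all libraries and leaving out each library. The fit was tested on simulated counts. Totals of 12256092 to 15152890 reads limit genes of few reads, above all UGT2B7 and UGT2B10. Named genes were all members, the targeted genes, up to 4 genes of smallest p per list and knockdown, and the 3 genes most like the leading member of each role. Some genes that this rule names are not reported here.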

Additional observations from a re-analysis of the deposited data

Results flagged for a closer look

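In 5 genes the FOXA1 effect and the TRIM28 effect differed by the test of the difference over all 12 libraries (edgeR quasi-likelihood test, adjusted p under 0.05, as in 10.6% of 15921 tested genes). The differences of log2 fold changes, FOXA1 minus TRIM28, were -1.72 for UGT2B10, -1.29 for UGT2B11, -1.48 for UGT2B15, -1.81 for UGT2B17 and 1.88 for HSD11B2. The knockdown libraries had FOXA1 at 28.7% to 29.5% of control in the FOXA1 knockdown and at 42.6% to 70.1% in the TRIM28 knockdown, and whether that has a part in these differences was not tested. Without replicate 3 of the TRIM28 knockdown the differences were -1.30, -1.06, -1.28, -1.33 and 1.81 for the same genes in this order, each still called.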

How the results depend on the processing

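After FOXA1 knockdown, 8 members were called under each alternative, left-out libraries included, beside 22.8% to 53.5% of tested genes, and no member changed direction. The TRIM28 comparison moved most: in place of 3 members, 0 were called with library size only (27.4% of all tested genes called) and with limma on log2(FPKM + 0.1) or log2(FPKM + 1) (24.5% and 24.2%), and 5 with no filter (13.8%), with all 12 libraries in one fit (35.9%) and with the replicate block (25.7%), beside 26.7% in the comparison as reported. Leaving out single libraries gave 0 to 8 members and 1817 to 6966 genes, with 8 and 6966 without knockdown replicate 3 (11.7% to 45% of tested genes). There UGT2B15 ranged over -0.32 to 0.052 and SRD5A3 over -0.35 to 0.21 on the log2 scale. For the difference of effects the ranges were 3 to 6 members, 1176 to 3528 genes (7.15% to 21.4% of those tested) and -0.13 to 0.44 for SRD5A3. The cause was not tested.

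Between the controls, 8 genes were called with no filter and 0 to 2 with 1 library left out. Log2 differences near 0 changed sign: FOXA1 was 0.012 with library size only and 0.013 in both limma fits, and with 1 library left out the ranges were -0.047 to 0.032 for FOXA1, -0.045 to 0.0012 for SRD5A1, -0.17 to 0.037 for SRD5A3, -0.0062 to 0.090 for TRIM28, -0.32 to 0.055 for UGT2B17, -0.055 to 0.0074 for HSD17B4, -0.0071 to 0.11 for UGT2B15 and -0.12 to 0.077 for HSD11B2.

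Replicates with the same number showed little shared deviation (correlations -0.09 to 0.11). In the FOXA1, TRIM28 and control comparisons, 3, 0 and 0 of 6 samples correlated best with their own number. With 3 libraries per group this check cannot decide whether replicates of the same number were prepared together. With the replicate block, UGT2B17 (-0.73, adjusted p = 0.0340) and UGT2B28 (-0.85, adjusted p = 0.0422) were also called after TRIM28 knockdown; counts of genes called were 7997, 3846 and 1597 for FOXA1, TRIM28 and the difference, against 7840, 3993 and 1683 without it. Genes of few reads limit these data: UGT2B7 could not be tested.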
